A study of Rattus norvegicus with 24 samples.

Results

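Cytosolic ribosomal proteins were followed across cumulus-oocyte complexes of 24 rats. A gene was taken as a member where its platform symbol was Rpl or Rps followed by a digit, Rplp0 to Rplp2 or Rpsa, with the Rps6k kinases left out. The rule found 66 genes, each with 1 probe, among 22226 probes. By name they were 34 proteins of the large subunit, 23 of the small subunit, 3 of the P stalk, 5 paralogs and 1 other protein. The other protein, Rps19bp1, is not part of the ribosome but a nucleolar protein that binds Rps19, and it is named apart wherever it decides a count. Of the 66 genes, 58 had a detection score over 0.99 on at least 6 of the 24 arrays and were tested. A detection score is 1 minus a detection p-value, the chance that background alone would give a signal at least that high.

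A cumulus-oocyte complex is an oocyte with the cumulus granulosa cells around it. The complexes came from sexually mature female rats of the Sprague Dawley strain, each rat gave 1 array, and 4 groups held 6 rats each. The control rats had no hormone named in the labels. The GnRH group received gonadotropin-releasing hormone, which aligns the cycle, and the GnRH+eCG group also received equine chorionic gonadotropin, a stand-in for follicle-stimulating hormone under which follicles grow. The GnRH+eCG+hCG group, called the hCG group here, received in addition human chorionic gonadotropin, a ligand of the luteinizing hormone receptor that sets off ovulation. No genetic change is named for any group. The sources used here give no hormone times or doses and no ages. RNA was amplified before labelling, and each complex holds oocyte and somatic cells, so fewer cells of a type and less RNA per cell cannot be told apart.

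The ribosome reads messenger RNA and joins amino acids into protein. Its small subunit decodes the message, its large subunit forms the peptide bond, and the P stalk on the large subunit recruits the elongation factors. Ribosomal proteins and ribosomal RNA are assembled in the nucleolus by a separate set of biogenesis factors. In mammals the messages of ribosomal proteins begin with a C and an unbroken run of pyrimidines, the terminal oligopyrimidine (TOP) motif, through which mTOR signalling sets how strongly they are translated. Growing oocytes build up ribosomes for the early embryo, and genes of ribosomal proteins are in wide use as references in PCR because their levels are taken to be steady.

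RefSeq start sites on the rat assembly GRCr8 were read for 55 of the 66 genes, to show the feature these messages share. The C and at least 4 following pyrimidines stood at the annotated start of 21 of the 55 (38.2%), against 2.63% of 33469 RefSeq promoters. The pentamer CTTTC occurred on the sense strand within 15 bases of the start in 24 of the 55 (43.6%) and in 3.73% of all promoters. Its reverse complement GAAAG, the same pentamer on the other strand, occurred in 0 of the 55 and in 3.95% of all promoters. A run of at least 8 pyrimidines lay within the same 15 bases in 34 of the 55 (61.8%) and in 11.8% of all promoters. These motifs overlap one another, and each is a match of letters at 1 annotated start, not a mapped transcript end. The windows printed here hold 20 bases before the start and 20 from it, read 5′ to 3′ on the gene's strand, and capitals mark the longest pyrimidine run of at least 5 bases within 15 bases of the start. Rpl10, Rpl10a, Rplp1 and Rps15 were higher in the hCG group than in control and hold the C with its run. Rps12 and Rps16 were higher too without it, as was the non-ribosomal Rps19bp1. The 3 steadiest genes of the set are shown as well: Rps14 and Rps27 hold the C with its run, and the steadiest, Rps21, has a pyrimidine run there but no C at its annotated start.
Rpl10, chrX:157205830-157205869, plus strand: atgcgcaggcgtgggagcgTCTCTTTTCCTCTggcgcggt
Rpl10a, chr20:6390513-6390552, plus strand: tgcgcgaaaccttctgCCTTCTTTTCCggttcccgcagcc
Rplp1, chr8:71290853-71290892, minus strand: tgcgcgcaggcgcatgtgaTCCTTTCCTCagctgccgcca
Rps15, chr7:10068096-10068135, minus strand: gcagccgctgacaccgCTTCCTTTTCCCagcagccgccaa
Rps12, chr1:23500055-23500094, plus strand: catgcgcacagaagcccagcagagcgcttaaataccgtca
Rps16, chr1:92770638-92770677, plus strand: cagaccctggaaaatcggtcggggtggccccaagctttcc
Rps19bp1, chr7:113693004-113693043, minus strand: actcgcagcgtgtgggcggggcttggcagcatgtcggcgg
Rps14, chr18:56498240-56498279, plus strand: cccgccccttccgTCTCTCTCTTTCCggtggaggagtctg
Rps27, chr2:177964587-177964626, minus strand: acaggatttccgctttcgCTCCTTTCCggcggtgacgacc
Rps21, chr3:187724018-187724057, plus strand: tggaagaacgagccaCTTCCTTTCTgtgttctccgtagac
Among the 12 genes called higher in the hCG group than in control, 4 of the 11 with a start read held the C and its run. Among the 46 tested genes not called, 16 of the 36 read held it.

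On each array 25.3% to 37.9% of probes were detected, and the median raw signal was 140.5 to 235.4. Oocyte markers were present: of 13 on the array, 10 to 12 were detected on every array of the control, GnRH and GnRH+eCG groups, and Mos was detected on none of the 24 arrays. On hCG arrays 6 to 10 of the 13 were detected. GnRH rats 5 and 16 stood apart from their group, with a median correlation across tested probes of 0.914 and 0.902 with the other GnRH arrays, against 0.965 to 0.968 for the other 4. Their summed signal of theca and stroma markers was 7160 and 5520, against 813 to 2110 in those 4. Rats 1 to 12 and rats 13 to 24 each held 3 rats of every group, and these sets of rat numbers stood in for a batch. Nothing in the labels says more of how the rats were kept or sampled than that each array is 1 rat.

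The signals of most ribosomal protein genes were high and steady. Values are log2 normalized signal, on which a step of 1 is a doubling. Mean signal over the 24 arrays was 7.03 to 13.37, with a median of 11.82, against a median of 8.48 over the 8082 tested probes. The median signal of the 58 genes on an array lay between 11.71 and 11.97 on all 24 arrays. Its mean was 11.81 ± 0.07 in control, 11.83 ± 0.09 in GnRH, 11.84 ± 0.03 in GnRH+eCG and 11.87 ± 0.06 with hCG (SD, n = 6), so the groups overlapped. The 58 genes held 2.97% to 3.52% of the normalized signal of tested probes. In control and in the hCG group alike, that share was 3.00% to 3.52%. In the raw signals their share was 2.56% to 2.95% in control and 3.02% to 3.21% in the hCG group, which did not overlap. GnRH, at 2.71% to 3.11%, and GnRH+eCG, at 2.62% to 3.19%, overlapped both.

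The SD over all 24 arrays had a median of 0.147 in the 58 genes and of 0.33 in all tested probes. It was under 0.2 in 38 of the 58 (65.5%), against 12.4% of all tested probes. Bright probes vary less on these arrays, so the 45 genes with a mean signal of at least 11 were set beside the 783 other tested probes that bright, and the median SD was 0.129 and 0.212. The bound of 11 was chosen after seeing the values. The highest raw signal of a member on an array was 8844.1 to 14302.9, and the highest of any probe was 21497.3 to 38595.4.

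**Figure D1:**
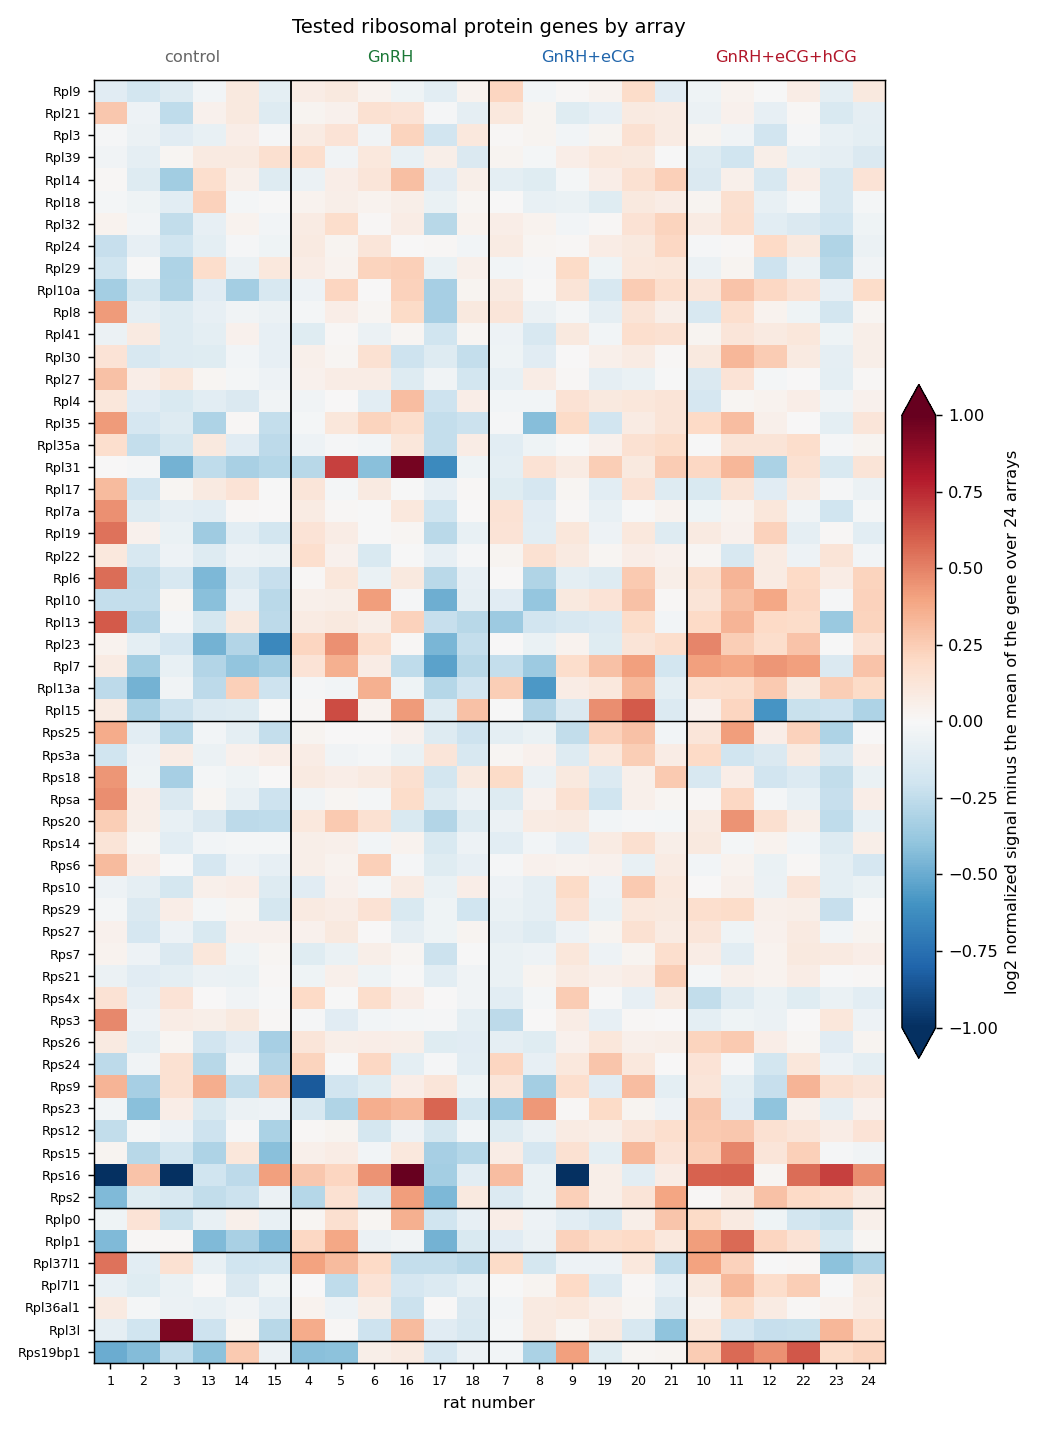
Each row is 1 of the 58 tested genes and each column 1 rat, and colour gives the log2 normalized signal minus the mean of the gene over 24 arrays, capped at 1 in either direction. Rows are ordered by large subunit, small subunit, P stalk, paralogs and Rps19bp1, and within each by mean signal. Most rows are pale across all 4 groups, Rps16 has the widest range (3.06), and Rpl31 is high in GnRH rats 5 and 16.

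The steadiest genes were Rps21, Rps14 and Rps27, all of the small subunit, with an SD over 24 arrays of 0.079, 0.081 and 0.084. Control rats had Rps14 at 12.32 to 12.56 (median 12.41), GnRH rats at 12.28 to 12.49 (12.43), GnRH+eCG rats at 12.32 to 12.59 (12.45) and hCG rats at 12.30 to 12.53 (12.44). All 4 groups of Rps14 overlapped over nearly their whole range. Rps21 spanned 11.80 to 12.16 and Rps27 12.04 to 12.36 over the 24 rats.

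The brightest probes were those of Rpl9, at the base of the P stalk, and of Rps25, Rpl21, Rps3a and Rps18, a protein of the small subunit head. Control rats had Rpl9 at 13.18 to 13.46 (median 13.26), GnRH rats at 13.26 to 13.46 (13.40), GnRH+eCG rats at 13.25 to 13.58 (13.39) and hCG rats at 13.27 to 13.46 (13.38). Its groups overlapped. The dimmest tested probes were those of Rps2 (7.03), Rps19bp1 (7.39) and Rpl3l (7.62), and Rps2 was detected on only 11 arrays and Rps19bp1 on 19. Rpl3l is the paralog that takes the place of Rpl3 in heart and skeletal muscle. Its signal had a median of 7.48, 7.57, 7.62 and 7.59 in control, GnRH, GnRH+eCG and hCG rats, with control rat 3 alone at 8.55.

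The widest spreads belonged to Rps16 (0.726), Rpl31 (0.361) and Rps19bp1 (0.328). Rpl31, a protein near the mouth of the peptide exit tunnel, lay at 11.05 to 11.53 in control and 10.89 to 12.48 in GnRH, where rats 5 and 16 held the highest values, 12.21 and 12.48. In GnRH+eCG it lay at 11.43 to 11.78 and in the hCG group at 11.21 to 11.86. All groups of Rpl31 overlapped.

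For 8 genes no test was made. Rpl5, Rpl11, Rpl12, Rpl34, Rplp2 and Rps19 were detected on 0 arrays, and Rpl22l1 and Rpl36a on 1. Their raw signals ranged from 102.2 for Rpl34 to 315.6 for Rpl36a on single arrays. Rpl5 and Rpl11 are the proteins that bind Mdm2 together with the 5S RNA, and Rplp2 is the partner of Rplp1 in the stalk. A probe without signal gives no level of the gene, because each gene had 1 probe and its match to the message was not tested. Of the other genes, 54 were detected on all 24 arrays, and Rps16 and Rpl15 on 23.

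The first hormone step, GnRH against control, asked whether aligning the cycle moved these genes. None of the 58 was called at an adjusted p under 0.05 by limma, where 0 of the 8082 tested probes (0%) were called. At an unadjusted p under 0.05 there were 4 genes (6.9%) and 961 probes (11.9%). The median log2 difference was 0.05, against 0.00 over all tested probes, and the 95% interval lay within a 1.5-fold change in either direction for 55 of 58 genes (94.8%) and for 65.8% of all tested probes. The genes with the smallest p were Rpl10a, whose protein forms the stalk that guides transfer RNA out, Rps16, and Rpl23, which can bind Mdm2. Their differences were 0.25, 0.83 and 0.30 with adjusted p of 0.381, 0.390 and 0.405. Without GnRH rats 5 and 16 the median difference was 0.02, with 0 genes called, and it was 0.08 within rats 1 to 12 and 0.02 within rats 13 to 24.

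Follicle stimulation, GnRH+eCG against GnRH, gave 0 of 58 genes and 0 of 8082 probes (0%) called by limma. At an unadjusted p under 0.05 there were 0 genes and 431 probes (5.33%). The median difference was 0.03, against 0.01 over all tested probes. It was -0.06 within rats 1 to 12 and 0.10 within rats 13 to 24. Intervals lay within 1.5-fold for 57 of 58 genes, against 72.3% of all tested probes, and the exception was Rps16. The smallest p belonged to Rps21, Rps12 and Rps15, with differences of 0.10, 0.11 and 0.14 and adjusted p of 0.992 each.

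Both hormones together, GnRH+eCG against control, gave 0 of 58 genes called, where 0.421% of tested probes were called. Within rats 1 to 12 the median difference was 0.03, and within rats 13 to 24 it was 0.12. The GnRH+eCG and control arrays of this comparison also serve the ones above and below. At an unadjusted p under 0.05 there were 8 genes (13.8%) and 1242 probes (15.4%), and the median difference was 0.08, against 0.00 over all tested probes. Rpl10a had the smallest p, with 12.23 ± 0.15 in GnRH+eCG and 11.92 ± 0.10 in control, a difference of 0.32 (SE 0.10, adjusted p = 0.129, limma). Rplp1 and Rps2 followed with differences of 0.36 and 0.31 and adjusted p of 0.222 and 0.235. Rpl24, which takes part in a bridge between the subunits, was the single gene whose 6 GnRH+eCG values, 12.67 to 12.87, lay wholly above the 6 control values, 12.43 to 12.65 (adjusted p = 0.256), where 1.62% of all tested probes had groups that did not overlap. It is named after its values were seen.

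**Figure D2:**
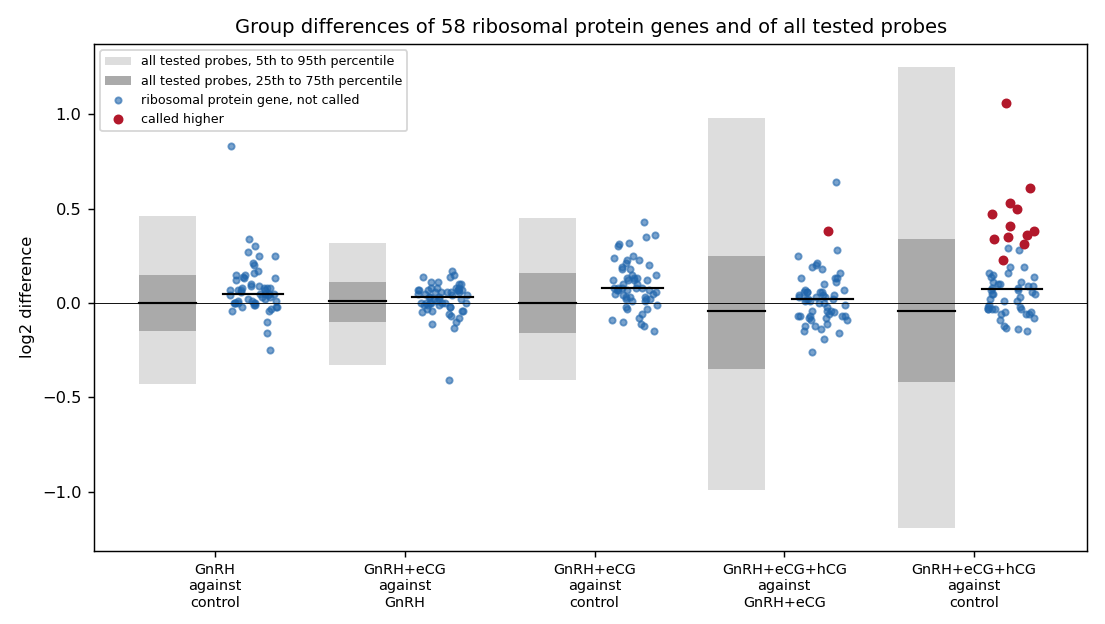
For each of the 5 comparisons, points give the log2 difference of each of the 58 genes and grey bars the middle of the distribution over 8082 tested probes (25th to 75th and 5th to 95th percentile). Black lines are medians and red points are genes called higher. In the hCG group against GnRH+eCG, the bar from the 5th to the 95th percentile runs from -0.99 to 0.98, and the 58 genes lie between -0.26 and 0.64.

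The ovulatory step ran from GnRH+eCG to the hCG group, and in it 39.8% of tested probes were called, 17.8% higher and 22% lower. Of the 58 genes, 1 was called higher and 0 lower, and the one called was Rps19bp1. No gene of a ribosomal protein or paralog was called by limma. Among the other tested probes with a mean signal of at least 11, 28.7% were called, and of the 45 genes that bright 0 were. At an unadjusted p under 0.05 there was the same 1 gene (1.72%), against 47.7% of all tested probes.

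The differences were small in each class. The large subunit had a median of 0.00 over 29 genes, with a range of -0.26 to 0.28, and the small subunit one of 0.02 over 22 genes, with a range of -0.19 to 0.64. Intervals lay within 1.5-fold for 54 of 58 genes (93.1%), against 44% of all tested probes and 74.7% of the other bright ones, and the exceptions were Rpl15, Rpl7, Rps16 and Rps19bp1. No gene had groups that did not overlap, against 21.1% of all tested probes. The median over all 58 genes was 0.02, against -0.04 over all tested probes. With median scaling in place of quantile normalization these medians were 0.11 and -0.15, so the distance between genes and all probes was 0.06 in one and 0.26 in the other. Within rats 1 to 12 the median of the genes was 0.05, and within rats 13 to 24 it was -0.06, with 0 genes called in either. With median scaling Rps19bp1 was lost, Rpl7l1 was called higher and Rpl15 lower, where 879 of 8082 tested probes were higher and 2226 lower. With array weights 4 genes were called higher and 4 lower. The shares of all tested probes called within either set of rats, at 3 rats per group, and with array weights are not given here.

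Rps19bp1, also known in human cells as a regulator of the deacetylase SIRT1, lay at 7.07 to 7.80 in GnRH+eCG (median 7.39) and 7.57 to 8.01 in the hCG group (7.74). The upper GnRH+eCG value, rat 9, lay among the hCG values. The difference was 0.38 (SE 0.14, adjusted p = 0.0309, limma). It was detected on 5 of 6 GnRH+eCG arrays and 6 of 6 hCG arrays. The call was lost without any of 6 single arrays, GnRH+eCG rats 7, 8 and 19 and hCG rats 11, 12 and 22, where the difference was 0.32 to 0.38 and the adjusted p 0.0503 to 0.0809. With median scaling the difference was 0.16 (adjusted p = 0.399).

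The genes in use as PCR references did not pass the test in this comparison. Rplp0, the core of the P stalk, lay at 12.41 to 12.85 in GnRH+eCG (median 12.58) and 12.35 to 12.76 in the hCG group (12.57), a difference of -0.04 with a 95% interval of -0.25 to 0.17. Rps29 differed by 0.01 (-0.17 to 0.19), Rpl19 by 0.02 (-0.22 to 0.26), Rpl4 by -0.08 (-0.25 to 0.09) and Rpl32 by -0.12 (-0.30 to 0.06). Rps18 lay at 12.64 to 13.04 in GnRH+eCG (median 12.86) and 12.53 to 12.85 in the hCG group (12.63), and differed by -0.19 (-0.41 to 0.03, adjusted p = 0.154). Rpl13a differed by 0.18 (adjusted p = 0.323) and Rps16 by 0.64 (SE 0.34, adjusted p = 0.143). With array weights Rps16 was called higher, by 0.59 (adjusted p = 0.0215, limma). Against control, Rpl13a and Rps16 were the 2 of the 8 reference genes called higher, a share near the 24.4% of all tested probes. An interval that includes 0 does not show that a gene was equal in both groups.

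Rpsa, the small subunit protein first described as a laminin receptor, lay at 12.50 to 12.85 in GnRH+eCG (median 12.73) and 12.47 to 12.90 in the hCG group (12.69), a difference of 0.00 (-0.21 to 0.22). Of the paralogs, Rpl7l1 differed by 0.16 (adjusted p = 0.130), Rpl36al1 by 0.06, Rpl3l by 0.06 and Rpl37l1 by 0.03. Of the parent genes measured, Rpl3, at the catalytic centre, differed by -0.11 (adjusted p = 0.261), Rpl7 by 0.28 (adjusted p = 0.154) and Rpl22 by -0.07. Levels of a paralog and its parent were not compared, since they come from different probes.

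Over the whole course, from control to the hCG group, 51.9% of tested probes were called, 24.4% higher and 27.5% lower. Of the 58 genes, 12 (20.7%) were called higher and 0 lower. Of the 12, 11 are ribosomal proteins or a paralog. They were 5 of 29 large subunit genes, 4 of 22 small subunit genes, 1 of 2 stalk genes, 1 of 4 paralogs and Rps19bp1. Groups without overlap were found in 4 of 58 genes (6.9%) and in 26.1% of all tested probes. The median difference was 0.07, against -0.04 over all tested probes. Within rats 1 to 12 alone 2 genes were called higher, and within rats 13 to 24 alone 4, with medians of 0.10 and 0.08. Each of these refits had 3 rats per group. The share of all tested probes called in them is not given here, so the lower counts are not read as a result about these genes.

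Of the large subunit, Rpl10a lay at 11.81 to 12.04 in control (median 11.92) and 12.07 to 12.44 in the hCG group (12.32). No value of the groups overlapped, and the difference was 0.38 (SE 0.10, adjusted p = 0.00249), or 1.30-fold. Rpl7 lay at 9.53 to 10.01 in control (9.61) and 9.78 to 10.37 in the hCG group (10.32). The groups of Rpl7 overlapped only through hCG rat 23, the lowest of its group, and the difference was 0.53 (SE 0.15, adjusted p = 0.00668). Rpl23 lay at 9.79 to 10.47 in control (10.20) and 10.43 to 10.92 in the hCG group (10.64), overlapping at the edge, with a difference of 0.50 (SE 0.13, adjusted p = 0.00383).

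Rpl10, which joins the large subunit late in its maturation, lay at 10.50 to 10.94 in control (10.68) and 10.91 to 11.31 in the hCG group (11.14). The difference was 0.41 (SE 0.13, adjusted p = 0.00937), with overlap at the edges. Rpl13a, known in human and mouse cells also as part of a complex that silences inflammatory messages, lay at 8.46 to 9.17 in control (8.70) and 9.03 to 9.20 in the hCG group (9.12). Its difference of 0.36 (SE 0.14, adjusted p = 0.0311) was past the threshold by little, and it was lost without any of 6 single arrays, control rats 1, 2, 13 and 15 and hCG rats 12 and 23.

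Of the small subunit, Rps12 lay at 10.49 to 10.80 in control (10.68) and 10.88 to 11.08 in the hCG group (10.95), without overlap. The difference was 0.31 (SE 0.08, adjusted p = 0.00261), or 1.24-fold. Rps15, near the decoding site, lay at 9.74 to 10.27 in control (9.93) and 10.12 to 10.64 in the hCG group (10.33), with overlap and a difference of 0.34 (SE 0.12, adjusted p = 0.0169). Rps2, at the entry of the message, lay at 6.59 to 6.97 in control (6.84) and 7.04 to 7.32 in the hCG group (7.16), without overlap, a difference of 0.35 (SE 0.12, adjusted p = 0.0217). It was detected on 1 control array and 4 hCG arrays, so its level rests near the background, and the call was lost without control rat 1 (adjusted p = 0.0515).

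Rps16, whose tail reaches the transfer RNA in the peptidyl site, had the widest difference of the 12. It lay at 7.12 to 9.55 in control (median 8.91) and 9.16 to 9.83 in the hCG group (9.71). Control rats 1 and 3, at 7.12 and 7.44, lay far under the other 4 control rats, at 8.88 to 9.55. The difference was 1.06 (SE 0.34, adjusted p = 0.0125), or 2.09-fold. It was 1.54 within rats 1 to 12, which hold both of these rats, and 0.59 within rats 13 to 24, with adjusted p of 0.0616 and 0.148.

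Rplp1, the stalk protein that carries the flexible tail for elongation factors, lay at 10.56 to 11.02 in control (10.63) and 10.86 to 11.58 in the hCG group (11.19), with overlap. The difference was 0.47 (SE 0.14, adjusted p = 0.00669), or 1.39-fold. Rplp0 of the same stalk differed by 0.02 (-0.20 to 0.23). Rpl7l1, a paralog of Rpl7, lay at 11.65 to 11.79 in control (11.72) and, with 1 value equal to rounding, 11.79 to 12.12 in the hCG group (11.93), a difference of 0.23 (SE 0.08, adjusted p = 0.0192). Rps19bp1 lay at 6.89 to 7.65 in control (7.07) and 7.57 to 8.01 in the hCG group (7.74). Its difference of 0.61 (SE 0.14, adjusted p = 0.000842) rested on 4 of 6 control arrays and 6 of 6 hCG arrays with detection.

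**Figure D3:**
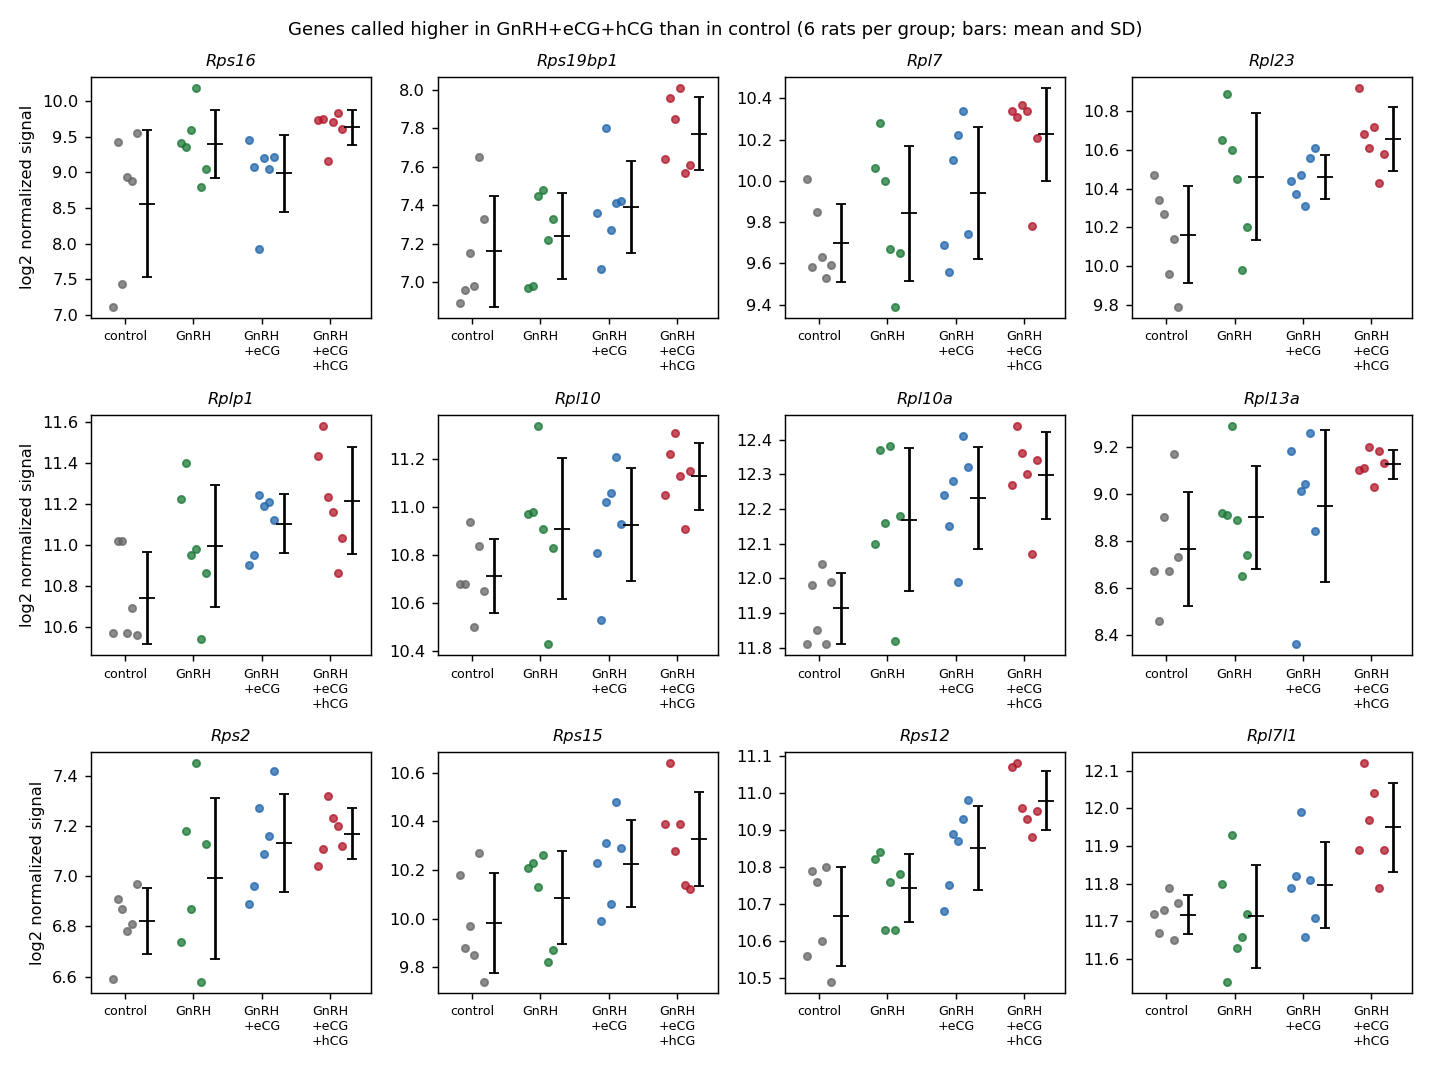
Points are the 6 rats of each group for the 12 genes called higher in the hCG group than in control, on a separate log2 axis for each gene, with the mean and SD beside them. Rpl10a, Rps12, Rps2 and Rpl7l1 have hCG values wholly above control, and the GnRH and GnRH+eCG groups lie between or across both.

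For these 12 genes the difference from control is split here by hormone step, as a description. The genes were chosen by that difference, and its earlier part uses the same control arrays. Against control, GnRH+eCG differed by 0.08 (Rpl7l1) to 0.43 (Rps16), and against GnRH+eCG the hCG group differed by 0.04 (Rps2) to 0.64 (Rps16). For Rpl10a most of the 0.38 lay before hCG, with 0.32 in GnRH+eCG against control and 0.06 in the hCG group against GnRH+eCG. For Rpl7l1 the order was the other way, 0.08 and 0.16. None of these parts passed the test except that of Rps19bp1 after hCG, and these comparisons share their arrays.

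Genes with a mean signal under 11 held most of the calls. That bound lies above the median of 8.48 over all tested probes. Of the called genes, only Rps2 (7.03) and Rps19bp1 (7.39) lay under that median. Of the 13 genes with a mean signal under 11, 9 were called higher in the hCG group than in control, with a median difference of 0.35, and the 9 include the non-ribosomal Rps19bp1. Of the other tested probes with a mean signal under 11, 25.1% were called higher. Of the 45 genes with a mean signal of at least 11, 3 were called higher (Rpl10a, Rplp1 and Rpl7l1) and 0 lower, with a median of 0.05. Of the 783 other tested probes that bright, 143 were called higher and 211 lower, 45.2% in either direction. After hCG, relative to GnRH+eCG, the dimmer genes had a median of 0.19 and the brighter ones of -0.01. Over the 58 genes the correlation of mean signal with the difference was r = -0.51 (Spearman -0.49) against control and r = -0.45 (-0.56) against GnRH+eCG. Those points share the 24 arrays and their normalization, so these values are a description. The interval against control lay within 1.5-fold for 49 of 58 genes (84.5%) and for 37.2% of all tested probes.

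**Figure D4:**
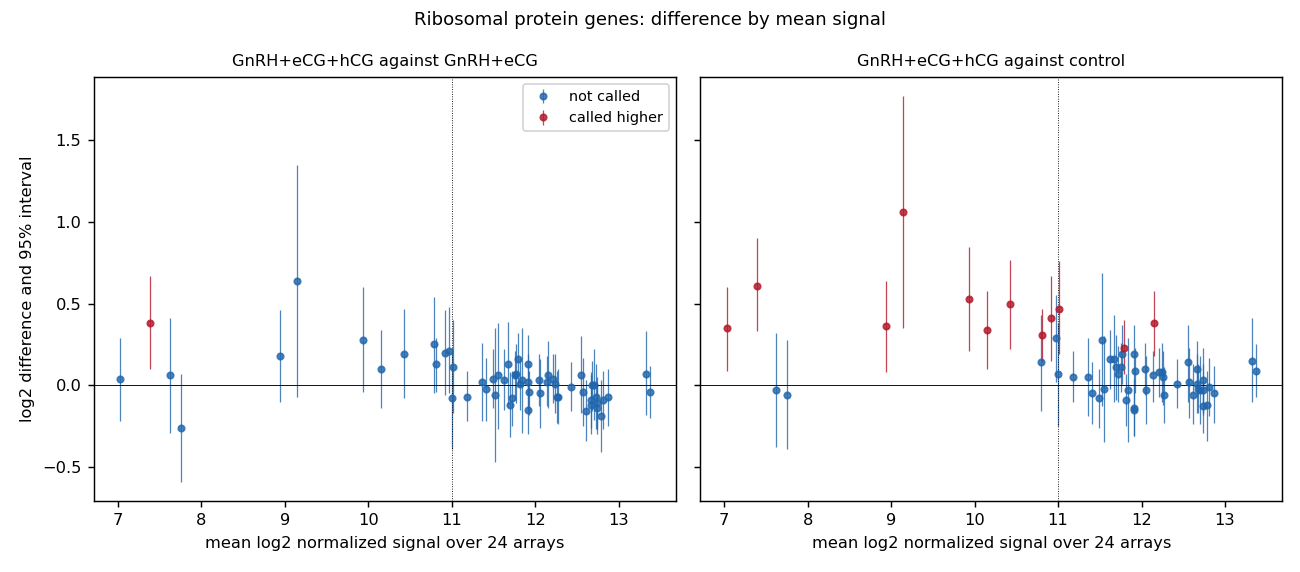
Each point is 1 of the 58 genes, placed by its mean log2 normalized signal over 24 arrays and its log2 difference, with a bar for the 95% interval. The dotted line stands at a mean signal of 11, and called genes are red. Against control, 9 of the 12 red points lie left of the line, and the genes right of it lie between -0.15 and 0.47.

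Scaling moved the count of calls. With median scaling 24 genes were called higher against control, 10 of them among the 12, where 20.1% of all tested probes were called higher, and the median difference was 0.24, against -0.10 over all tested probes. The 14 added genes included Rpl9, Rps21, Rps25, Rps27 and Rps29. Rpl13a and Rps2 were lost.

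Summed marker signals of some cell types also differed between these groups. Whether cell content changed, and its part in the calls, was not tested. The 13 oocyte markers on the array summed to 6650 to 18600 in control, 5310 to 19300 in GnRH+eCG but 3000 to 4680 in hCG rats, and all 12 tested were lower in the hCG group than in either. The 13 granulosa and cumulus markers, of which Kitlg and Slc38a3 were detected on no array, summed to 31300 to 47800, 32800 to 46300 and 25600 to 38500 in the same groups. Theca and stroma markers, 9 on the array, with Insl3, Pdgfra and Tagln detected on none, summed to 799 to 1680, 2410 to 4380 and 2640 to 5660. Leukocyte markers, 10 on the array, with Ptprc, Cd3e, Cd52, Itgam and Laptm5 detected on none, summed to 881 to 999, 1020 to 2920 and 1390 to 2810. Erythrocyte markers, 6 on the array, with Alas2 and Slc4a1 detected on none, summed to 2890 to 8870, 5610 to 25300 and 8100 to 11300. The 6 endothelium markers, with Cdh5 detected on none, summed to 609 to 657, 534 to 728 and 729 to 1510, and the 6 of oviduct epithelium, with Krt7 and Muc1 detected on none, to 533 to 2340, 563 to 1690 and 546 to 692.

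Genes that build ribosomes were read beside them from a fixed list, and no test compared the lists. Of 48 tested ribosome biogenesis genes, 27 were called higher and 1 lower (Sbds) in the hCG group than in GnRH+eCG, with a median difference of 0.35, against 17.8% and 22% of all tested probes. Nip7, which acts in late assembly of the large subunit, had a mean of 8.60 ± 0.10 in GnRH+eCG and 9.41 ± 0.13 in the hCG group (SD, n = 6), a difference of 0.81 (SE 0.12, adjusted p = 1.23e-05). Rrp9, of the U3 particle that processes the small subunit RNA, differed by 0.75 (SE 0.14, adjusted p = 0.000173), and Wdr12, a partner of Bop1 in the large subunit pathway, by 0.60 (SE 0.10, adjusted p = 0.000103). Against control 38 of the 48 were higher and 3 lower (Sbds, Ncl and Znhit6), where 24.4% of all tested probes were higher and 27.5% lower. In the hCG group against GnRH+eCG 15 were called higher with median scaling (median 0.23), where 879 of 8082 tested probes were. Within rats 1 to 12 alone 6 were called higher (median 0.38), and within rats 13 to 24 alone 10 (median 0.29).

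Other messages known to carry the TOP motif, those of elongation factors and related proteins, gave 5 of 12 higher and 1 lower after hCG, where 17.8% of all tested probes were higher and 22% lower. Tpt1, a translationally controlled protein, rose by 0.31 (SE 0.07, adjusted p = 0.00171), Eef1b2, an exchange factor of elongation, by 0.48 (SE 0.12, adjusted p = 0.00281) and the nucleolar chaperone Npm1, which is on the biogenesis list too, by 0.44 (SE 0.12, adjusted p = 0.00629). Naca, of the nascent chain complex, fell by 0.23 (adjusted p = 0.0215). With median scaling 3 of the 12 were called higher, where 879 of 8082 tested probes were. Within rats 1 to 12 alone 2 were called higher, and within rats 13 to 24 alone 0.

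The mitochondrial ribosome, a separate particle encoded by its own set of genes, was read from its own list. Of 55 tested genes, 14 were called lower and 2 higher in the hCG group than in GnRH+eCG, with a median of -0.13, where 22% of all tested probes were lower and 17.8% higher. The share lower is near that of all tested probes. Against control 13 were higher and 9 lower, where 24.4% of all tested probes were higher and 27.5% lower. Mrpl34 fell by 0.99 (SE 0.17, adjusted p = 7.89e-05), Mrps24 by 0.82 (SE 0.16, adjusted p = 0.000336) and Mrpl13 by 0.49 (SE 0.09, adjusted p = 0.000207). The genes called higher were Mrpl17 and Mrps2. Within rats 1 to 12 alone 0 were called lower and 1 higher, and within rats 13 to 24 alone 9 lower and 0 higher. With median scaling 19 were called lower and 0 higher, where 2226 of 8082 tested probes were lower and 879 higher. With array weights 25 were called lower and 7 higher.

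Of 12 tested genes of the mTOR and S6 kinase pathway, 3 rose and 3 fell after hCG, shares near the 17.8% and 22% of all tested probes. Within rats 1 to 12 alone 0 were called higher and 1 lower, and within rats 13 to 24 alone 2 and 2. With array weights 5 were called higher and 3 lower. Mycn fell by 1.49 (SE 0.27, adjusted p = 0.000197) and Eif4ebp1, the brake on cap-dependent translation, by 0.69 (SE 0.17, adjusted p = 0.00256), while Rps6kb2, a kinase of ribosomal protein Rps6, rose by 0.65 (SE 0.15, adjusted p = 0.00192). The others were Mtor, which fell, and Rps6ka5 and Myc, which rose. Rack1, a scaffold bound to the small subunit but outside the naming rule, differed by 0.09 (adjusted p = 0.526). Among the ribosomal proteins, 4 tested Mdm2 binders and 5 tested genes mutated in human Diamond-Blackfan anaemia held 0 calls at this step.

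**Figure D5:**
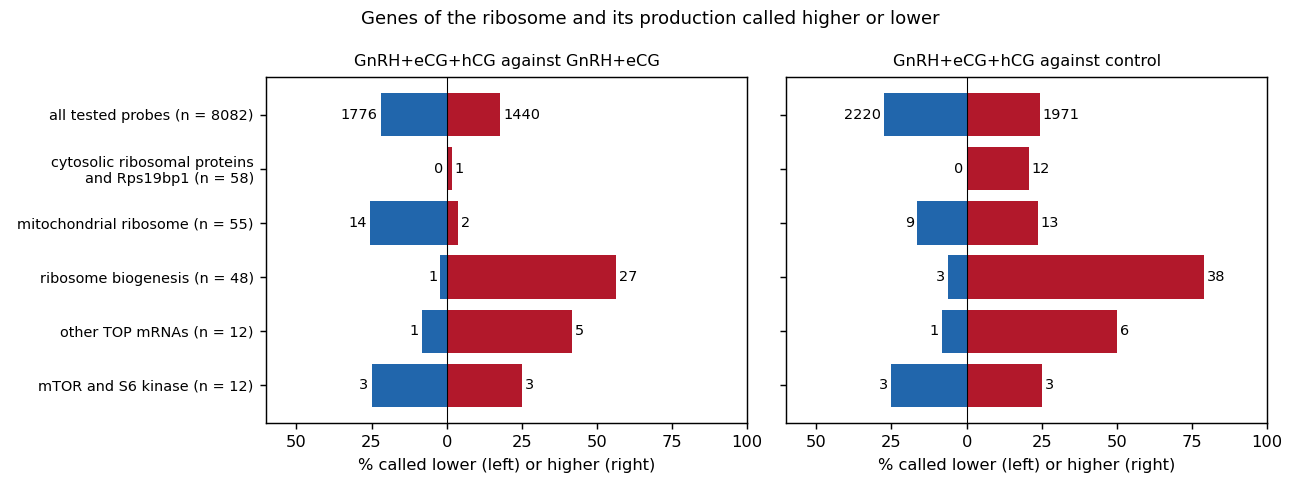
Bars give the percent of tested genes of each list called higher (right) or lower (left) in the hCG group, relative to GnRH+eCG and to control, with the count at each bar's end. After hCG against GnRH+eCG, no ribosomal protein or paralog gene was called and the 1 call among the 58 is Rps19bp1. There 28 of 48 biogenesis genes and 16 of 55 mitochondrial ribosome genes were called, beside 39.8% of all tested probes.

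Over 24 arrays the correlation between pairs of the 58 genes had a median of r = 0.22 over 1653 pairs. It was 0.22 after the group means were taken out. No value for pairs of other probes stands beside it, so it does not tell whether the genes varied as 1 unit. The probes outside the rule most like the mean of the 58 were Mrpl19 (r = 0.849), Eapp (0.825), Uqcrc1 (0.825), Gulp1 (0.811) and Srp14 (0.808), each over 24 arrays that share one normalization.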

How the data were processed

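Each array has 1 deposited intensity per probe, not logged, summarised with BeadStudio per the submitters' processing notes. The sources used here give no version, background handling or genome build. Detection is deposited as a fraction between 0 and 1, called a p-value in the file note but read as a score of 1 minus that p, because it rises with signal. Symbols came from the platform annotation, and 65 of 66 members matched a RefSeq gene ID with 0 symbols changed. Start sites were read from RefSeq promoter tables of GRCr8, not from the arrays.

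Background correction and quantile normalization used limma 3.58.1 (neqc, offset 16) under R 4.3.3. The 8082 probes with a score over 0.99 on at least 6 arrays entered 1 linear model of all 24 arrays, with a mean for each group and 20 residual degrees of freedom (lmFit, eBayes). P-values were adjusted by Benjamini-Hochberg over those 8082 probes, separately in 5 comparisons, and every adjusted p is from this fit or, where a setting is named, its refit. The model was tested on simulated arrays. Depth has no count here, so 6 arrays per group limit the precision. All 24 sample columns were used, 0 were left out, and no 2 arrays held identical values.

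Members, lists, tests and alternatives were chosen with earlier results of these data known. Named genes were every member called (or the 3 smallest p where none was), the brightest 5 and dimmest 3, the 3 steadiest and 3 most variable, stalk, paralog and PCR reference genes, and 3 genes of each further list by adjusted p. Genes beyond that rule were chosen after their values were seen. Alternatives covered background correction, scaling, the filter, a block for rats 1 to 12 against 13 to 24, each set alone, array weights, 1 probe per gene, no GnRH rats 5 and 16, and leaving out each array.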

Additional observations from a re-analysis of the deposited data

Results flagged for a closer look

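In 128 groups of 6 values, 4 groups for each of 32 named genes, 6 held a value whose gap to its nearest neighbour was a large part of the group's range by Dixon's test, and chance flags about 1 in 20 groups. Rps16 stood out in GnRH+eCG rat 9, at 7.93 with the next value at 9.04, and in hCG rat 12, at 9.16 with the next at 9.61. Rpl3l was high in control rat 3, at 8.55 with the next at 7.64. Rpl7 was low in hCG rat 23, at 9.78 with the next at 10.21. In GnRH rat 17 both Rpl32 and Rps18 were low, at 12.38 and 12.60 with the next values at 12.67 and 12.85. No cause of these values was tested.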

How the results depend on the processing

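No paired analysis was possible because no rat number occurs in more than 1 group. Of 962 values of named genes under other settings, 920 kept their direction and side of the threshold, 39 lost and 3 gained a call, and 0 called values changed sign. The counts of genes called and their medians moved as follows, and the cause was not tested. With median scaling, 1 gene was lower in the hCG group against GnRH+eCG, 24 were higher against control, and the medians were 0.17 in GnRH+eCG against control, 0.11 for hCG against GnRH+eCG, and 0.24 for hCG against control. That scaling moved the median of all probes by over 0.1, to -0.15, in the hCG group against GnRH+eCG, where 879 probes were higher and 2226 lower (28.3% higher) in place of 1440 and 1776 (44.8%). With array weights, 1 gene was higher in GnRH+eCG against control, and 4 were higher and 4 lower after hCG relative to GnRH+eCG. In the hCG group against control the weights gave 19 called genes in place of 12. All of the 12 were among them, and only Rpl39 was lower. In the hCG group against GnRH+eCG the 1 gene called higher became 0 with detection on all 24 arrays (Rps19bp1 was not tested there), with no filter, in rats 1 to 12 and in rats 13 to 24, and 0 to 1 when 1 array was left out. Against control, 2 genes were higher in rats 1 to 12 and 4 in rats 13 to 24, with 3 rats per group, and 11 to 14 when 1 array was left out. Counts from either set of rats or from array weights, here and for the lists, stand without the share of all tested probes. For GnRH+eCG against GnRH, rats 1 to 12 gave a median of -0.06 and rats 13 to 24 one of 0.10, and that for hCG against GnRH+eCG was -0.06 in rats 13 to 24. The set block, no background correction, 1 probe per gene and leaving out GnRH rats 5 and 16 moved none of these counts by over 1.5 times. Dim probes such as Rps2 limit what can be read near the background.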
